A study of Mus musculus with 2 samples.

Results

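Sp5 and Sp8 are the 2 genes whose loss is named in the genotype of this study, and they were followed cell by cell in single-cell RNA libraries of mouse gastruloids. Gastruloids are aggregates of embryonic stem cells that begin to form a body axis in culture. Both genes were read by symbol from the 32285 genes in the deposited count matrices. Cells were the barcodes with at least 2500 UMIs, at least 1000 genes and at most 10% mitochondrial UMIs. A UMI is a molecular tag by which each captured transcript is counted once. This left 8707 cells in the library labelled wild type (WT) and 10587 in that labelled as an Sp5 and Sp8 double knockout (dKO).

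Each library came from R1 embryonic stem cells, either unmodified or labelled as lacking Sp5 and Sp8, aggregated at about 300 cells in N2B27, a medium without serum. Aggregates of both genotypes received 3 µM CHIR, an inhibitor of GSK3 that switches on Wnt signalling, from day 2 for 12 hours. They were then pooled and dissociated at day 2.5. The labels do not describe the edited alleles, nor how many mutant clones were used. There was 1 library per genotype, so no difference between genotypes could be tested, and every interval below is a 95% interval that covers counting error only.

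Sp5 and Sp8 are zinc finger transcription factors of the Sp family, which bind GC-rich boxes in DNA. Their genes are turned on by Wnt signalling in the primitive streak and the caudal embryo, and their proteins act together with TCF/LEF factors and β-catenin on Wnt target genes. T (Brachyury) and Eomes are T-box factors of the primitive streak, whereas Irx3 is a homeobox factor of the anterior and neural side. These 3 genes served as status genes, a cell being positive if it held at least 1 UMI of the gene.

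Sp5 (ENSMUSG00000075304) lies on chromosome 2 from 70474923 to 70477729, plus strand (GRCm38, GENCODE M21), and has 2 exons, 1194 coding bases and a 3′ UTR of 563 bases. Sp8 (ENSMUSG00000048562) lies on chromosome 12 from 118846329 to 118852576, plus strand. Its longer annotated transcript has 3 exons, 1458 coding bases that all fall in the last exon, and a 3′ UTR of 2707 bases. No other annotated gene overlaps either of them on either strand. Because the libraries tag the 3′ end of polyadenylated RNA, a deletion that leaves the 3′ end in place would not be seen in these counts.

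The 250 bases before RefSeq starts of both genes (GRCm38.p6, plus strand) are shown because these genes are known as Wnt targets and sit in the family that binds GC and GT boxes. Capitals mark exact matches, on either strand, to the TCF/LEF core CTTTGA, the GC box GGGCGG, the GT box GGGTGG or the TATA box TATAAA. The motifs were not seen to overlap. A further Sp8 window (chr12:118847309-118847558, GC content 50%) reaches into an annotated 5′ UTR exon and is not printed. The Sp5 window spans chr2:70474673-70474922, the first Sp8 window chr12:118846079-118846328 and the second Sp8 window, which lies in the first intron of the longer transcript, chr12:118846983-118847232.
Sp5 upstream: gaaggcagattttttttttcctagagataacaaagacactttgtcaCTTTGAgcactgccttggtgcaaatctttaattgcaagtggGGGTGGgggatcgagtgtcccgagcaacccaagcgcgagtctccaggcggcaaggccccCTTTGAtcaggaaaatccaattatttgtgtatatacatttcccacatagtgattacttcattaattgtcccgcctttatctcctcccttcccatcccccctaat
Sp8 upstream, first start: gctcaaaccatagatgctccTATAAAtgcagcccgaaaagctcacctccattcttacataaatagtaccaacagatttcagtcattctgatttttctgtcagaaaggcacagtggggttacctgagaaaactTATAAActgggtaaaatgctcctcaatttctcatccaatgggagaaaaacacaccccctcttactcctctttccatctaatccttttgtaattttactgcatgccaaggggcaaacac
Sp8 upstream, second start: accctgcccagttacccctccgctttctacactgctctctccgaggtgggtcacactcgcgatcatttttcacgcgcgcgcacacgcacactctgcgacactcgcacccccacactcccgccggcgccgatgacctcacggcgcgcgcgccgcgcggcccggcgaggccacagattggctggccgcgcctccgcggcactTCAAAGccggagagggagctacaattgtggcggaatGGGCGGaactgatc

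The Sp5 window held the TCF/LEF core at 199 and at 99 bases before the start and a GT box at 158 bases. The first Sp8 window held no box of these kinds but the TATA letters at 225 and 113 bases. The second Sp8 window held the TCF/LEF core on the minus strand at 45 bases and a GC box at 9 bases. The window not printed held a GT box on the minus strand at 94 bases. Of 32851 such upstream windows of mouse genes, 13.8% held the TCF/LEF core, 32.7% the GC box, 28.1% the GT box and 12.4% the TATA letters. The GC content was 46% in the Sp5 window, 40.8% in the first Sp8 window and 67.2% in the second. These are matches of letters and no measurement of binding.

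Sp5 was not lost from the library labelled dKO. It held 10601 Sp5 UMIs in the library labelled WT, or 109.1 CPM (UMIs per 1000000 UMIs of the library, interval 107.0 to 111.2), against 46738 UMIs or 478.7 CPM (474.3 to 483.0) in the library labelled dKO. The log2 ratio, labelled dKO over labelled WT, was 2.13 (2.10 to 2.16), the highest of the 7607 genes with a mean of at least 10 CPM. Sp8 moved the same way by less. It held 2017 UMIs or 20.8 CPM (19.9 to 21.7) in the library labelled WT and 3920 UMIs or 40.1 CPM (38.9 to 41.4) in the library labelled dKO, a log2 ratio of 0.95 (0.87 to 1.03) that ranked 5 among the same genes. Past a log2 ratio of 0.5, 0.421% of these genes were higher (32 genes) and 0.434% lower (33 genes). Both targeted genes thus had more transcript in the library labelled as lacking them. With the alleles not described and only the 3′ end read, these counts cannot tell transcripts of edited alleles from intact ones, nor can they check which library carries which label.

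The libraries were close in size, with 97157331 UMIs in cells of the library labelled WT and 97644169 in those of the library labelled dKO. The median cell held 10571 and 8637 UMIs, respectively. Since a deeper cell shows more genes, shares of cells were taken after each cell was thinned to 4000 UMIs drawn at random, which left out 258 and 358 shallower cells. Only 27 cell barcodes occurred among the cells of both libraries. Of the 14 primitive streak genes listed 8 reached a mean of 10 CPM, whereas 2 of 11 naive pluripotency genes and 1 of 9 caudal genes did so. Of all 32285 genes, 7607 reached it. Every gene of these lists had at least 1 UMI.

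In thinned cells, Sp5 was found in 31.5% (30.5 to 32.5) of 8449 cells of the library labelled WT and in 70.5% (69.6 to 71.4) of 10229 cells of the library labelled dKO. Sp8 was found in 7.91% (7.34 to 8.5) and 14.3% (13.6 to 15). Without thinning the shares were 55.5% and 84.8% for Sp5 and 19.1% and 27.3% for Sp8, so the shares depend on depth while their order between libraries was the same. Both the share of positive cells and the level in them were higher for Sp5 in the library labelled dKO, where a positive cell held 2.69 thinned UMIs on average against 1.4. For Sp8 a positive cell held 1.13 against 1.07 UMIs. At so few UMIs per cell a positive cell holds close to 1 UMI in any case, so more positive cells and a higher level in each cannot be told apart for Sp8.

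Sp5 was spread unevenly over cells. With a mean of 1.9 thinned UMIs per cell in the library labelled dKO, 85% of cells would hold at least 1 UMI if all cells had that same mean, but 70.5% did. The variance over the mean was 2.18 there and 1.38 in the library labelled WT, where 35.6% of cells would be positive under a single mean and 31.5% were. For Sp8 the variance over the mean was 1.1 in the library labelled dKO and 1.05 in the library labelled WT. At its means of 0.161 and 0.0846 thinned UMIs per cell this measure lies near 1 even where cells differ. The evenness of the 2 genes therefore cannot be compared by it. The richest unthinned cell held 31 Sp5 UMIs in the library labelled dKO and 17 in the library labelled WT, against 6 and 5 Sp8 UMIs.

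**Figure D1:**
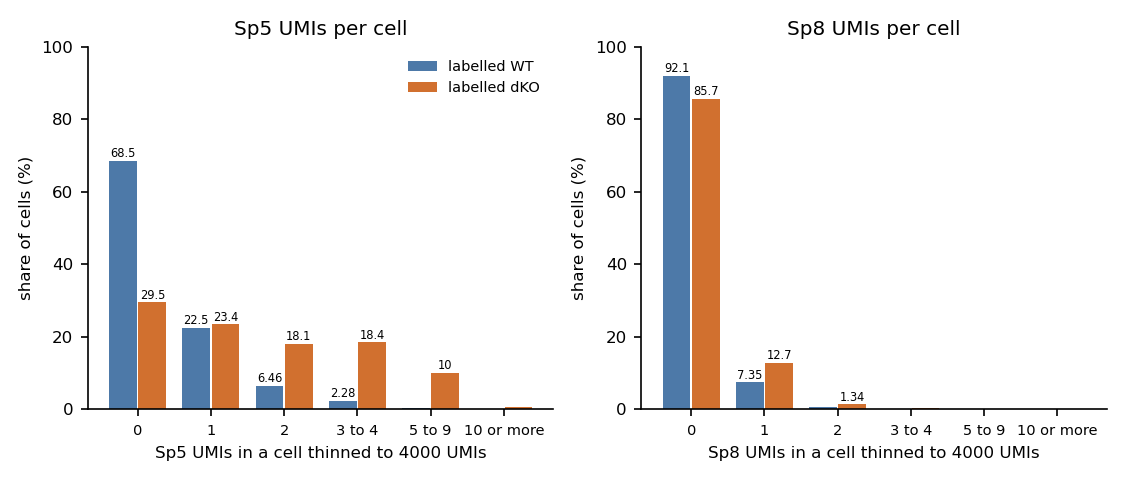
Share of thinned cells (y axis, %) by the number of Sp5 (left) or Sp8 (right) UMIs in the cell (x axis), with blue bars for the library labelled WT and orange bars for the library labelled dKO. Cells with no Sp5 UMI made up 68.5% and 29.5%, and cells with 5 to 9 Sp5 UMIs 0.201% and 10%; for Sp8, 92.1% and 85.7% of cells had none.

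Free RNA carried both transcripts as well. In barcodes with 10 to 100 UMIs, which hold little more than RNA released from other cells, Sp5 stood at 85.4 CPM (76.5 to 95) in the library labelled WT and at 442.2 CPM (416.8 to 468.9) in the library labelled dKO, 0.783 and 0.924 of its level in cells. Sp8 stood at 18.7 and 34.6 CPM, 0.901 and 0.862 of its level in cells. How many of the positive cells owe their UMI to free RNA was not tested. Cells rich in naive pluripotency genes, taken as those with at least 3 of 11 markers by a rule chosen after the data were seen, held less Sp5. It was at 48.8 CPM (21.1 to 96.1) in 41 such cells of the library labelled WT, against 110.4 CPM in the other cells. In 34 such cells of the library labelled dKO it was at 110.3 CPM (61.7 to 181.9), against 475.1 CPM in the others. The share of these cells with Sp5 was 19.5% and 26.5% (intervals 8.82 to 34.9 and 12.9 to 44.4). The median depth of these cells was 9190 and 8280 UMIs. Only in the library labelled dKO did this share lie below that of the other cells beyond counting error, whereas the CPM did so in both. Among the 10 and 10 cells with at least 4 of these markers, 0 and 1 Sp5 UMIs were counted.

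Sp5 and Sp8 were found together in the same cell about as often as their shares predict in the library labelled WT and slightly more often in the library labelled dKO. In the library labelled WT, 223 cells held both, against 210.2 expected from the product of the shares, a ratio of 1.06 (0.93 to 1.21). In the library labelled dKO, 1140 cells held both, against 1030.6 expected, a ratio of 1.11 (1.05 to 1.17). Sp8 was there in 15.8% (15 to 16.7) of Sp5-positive cells and in 10.7% (9.59 to 11.8) of Sp5-negative cells, and these intervals do not overlap. The same shares were 8.39% (7.36 to 9.51) and 7.69% (7.01 to 8.4) in the library labelled WT, where the intervals overlap.

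In the library labelled dKO the share of Sp8-positive cells was 10.7% with no Sp5 UMI, 13.8% with 1, 16.4% with 2, 16.4% with 3 to 4 and 18.3% with 5 to 9. The interval at 0 Sp5 UMIs (9.59 to 11.8) lay below that at 1 (12.4 to 15.2). From 1 UMI on the intervals of neighbouring classes overlap, while that at 5 to 9 (16 to 20.8) lay above that at 1. In the library labelled WT the share of Sp8-positive cells was 7.69%, 8.25%, 9.52% and 6.74% for 0, 1, 2 and 3 to 4 Sp5 UMIs, with no order beyond counting error. Only 17 cells of that library held 5 to 9 thinned Sp5 UMIs. Whether the relation differs between the libraries was not tested.

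Co-detection was also counted within status classes. Among cells negative for T, Eomes and Irx3 the ratio of cells with both genes to the number expected was 1.18 (1.08 to 1.27) in the library labelled dKO and 1.11 (0.94 to 1.30) in the library labelled WT. Among T-positive cells it was 1.04 and 0.83, and among Eomes-positive cells 1.05 and 0.96, all with intervals that include 1. Irx3-positive cells gave 1.02 and 1.44, from 45 and 14 cells with both genes. These ratios have unlike upper limits too. In the library labelled dKO, Sp5 was found in 65.8% of cells negative for all status genes and in 77.5% of T-positive cells.

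**Figure D2:**
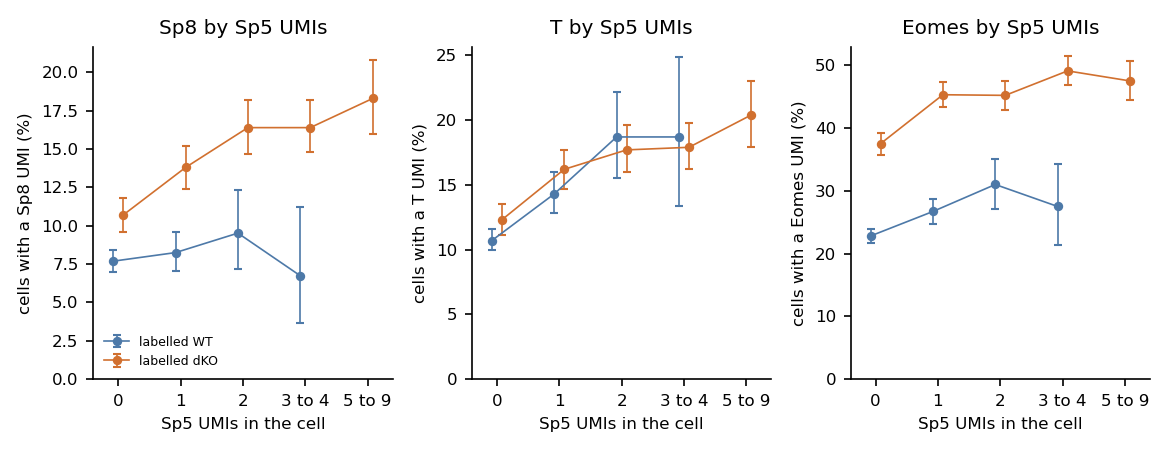
Share of thinned cells with a UMI of Sp8 (left), T (middle) or Eomes (right), in % on the y axes, by the number of Sp5 UMIs in the cell on the x axes. Points are the shares, bars their 95% binomial intervals, and classes under 100 cells are left out; T was found in 10.7% of cells with no Sp5 UMI and 18.7% of cells with 2 in the library labelled WT, and in 12.3% and 17.7% in the library labelled dKO.

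Sp5 was higher in cells with T or Eomes in both libraries. In T-positive cells it reached 147.0 CPM (135.5 to 159.1), against 105.0 (101.3 to 108.7) in T-negative cells, of the library labelled WT. The values were 554.4 (536.5 to 572.6) and 458.4 (451.2 to 465.6) in the library labelled dKO. The log2 ratios were 0.49 (0.36 to 0.61) and 0.27 (0.22 to 0.33). Eomes gave smaller ratios of the same sign, 0.34 (0.23 to 0.44) and 0.21 (0.17 to 0.25). With at least 2 UMIs required for status they were 0.73 and 0.44 for T and 0.61 and 0.30 for Eomes. The share of T-positive cells was higher with more Sp5 UMIs, from 10.7% at 0 to 18.7% at 2 in the library labelled WT, and from 12.3% at 0 to 20.4% at 5 to 9 in the library labelled dKO.

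Irx3 status gave no such picture. Sp5 stood at 94.9 CPM (82.6 to 108.5) in 564 Irx3-positive cells and 111.2 CPM (107.6 to 115.0) in Irx3-negative cells of the library labelled WT, a log2 ratio of -0.23 (-0.44 to -0.03). With at least 2 Irx3 UMIs required for status the ratio was 0.20, so its direction rests on that threshold. The library labelled dKO gave 0.03 (-0.09 to 0.14) from 347 Irx3-positive cells.

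Ordered by level, the 5 status classes with at least 200 cells ran in the library labelled WT from cells with Irx3 alone at 90.6 CPM (77.3 to 105.4) and cells with none of the status genes at 100.8 (96.5 to 105.1), over cells with Eomes alone at 122.7 (114.3 to 131.6) and T alone at 135.6 (121.7 to 150.7), to cells with T and Eomes at 168.5 (148.2 to 190.8). Intervals overlapped between each pair of neighbours in that order except none and Eomes alone. In the library labelled dKO cells with none were lowest at 431.6 CPM (422.3 to 441.0) and cells with T and Eomes highest at 595.3 (570.4 to 621.1). Cells with Irx3 alone, Eomes alone and T alone lay between, at 481.6, 493.1 and 504.5 CPM, and overlapped each other, and the interval for Irx3 alone also reached that of cells with none. The log2 ratio between the libraries was 1.82 to 2.41 for Sp5 within these 5 classes, so the higher Sp5 of the library labelled dKO was found in every one of them.

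Sp8 was nearly level across the same classes. Its log2 ratio by T status was 0.03 (-0.31 to 0.35) and 0.01 (-0.18 to 0.20) in the libraries labelled WT and dKO. By Eomes status it was -0.16 (-0.43 to 0.09) and -0.11 (-0.25 to 0.03). By Irx3 status it was -0.29 (-0.81 to 0.16) and 0.28 (-0.11 to 0.62), and the value of the library labelled WT changed sign with the depth of thinning, to 0.18 at 2500 UMIs and 0.35 at 6000. No interval given with thinning to 4000 UMIs excludes 0, whereas that at 6000 UMIs ran from 0.06 to 0.62. Within the 5 classes Sp8 ranged from 14.6 to 23.8 CPM in the library labelled WT and from 37.4 to 48.7 CPM in the library labelled dKO, with a log2 ratio between libraries of 0.80 to 1.72.

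**Figure D3:**
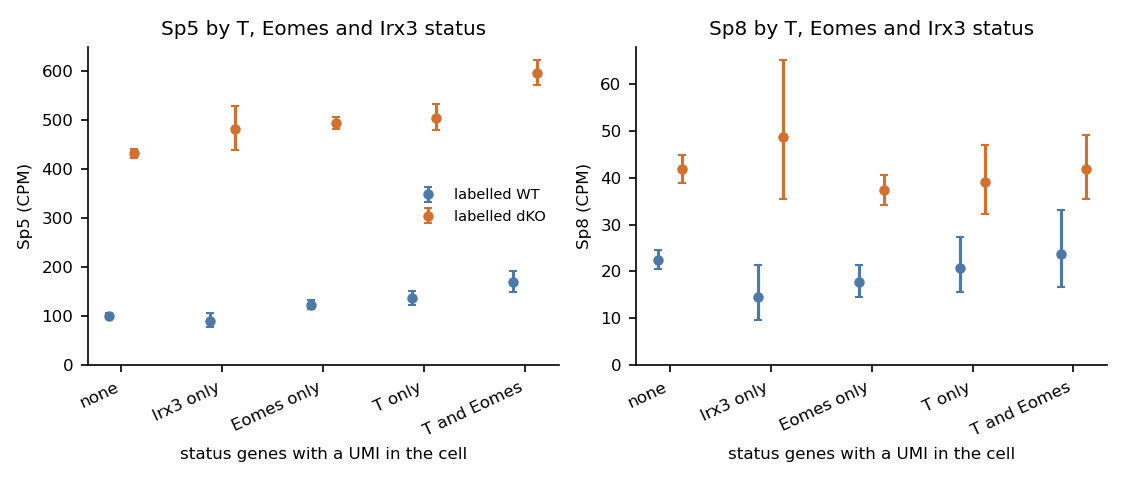
Sp5 (left) and Sp8 (right) in CPM (y axes) in thinned cells grouped by which of T, Eomes and Irx3 had a UMI (x axes), for the classes with at least 200 cells in each library. Points are levels and bars 95% Poisson intervals; Sp5 ran from 90.6 to 168.5 in the library labelled WT and from 431.6 to 595.3 in the library labelled dKO, highest in both with T and Eomes, while the Sp8 intervals overlap within each library.

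The genes that go with Sp5 inside a library were sought by comparing Sp5-rich cells, with at least 2 thinned UMIs, with cells that had none. There were 757 rich and 5790 empty cells in the library labelled WT and 4817 and 3018 in the library labelled dKO. Their depths were alike, with medians of 10498 and 10711 UMIs and of 8870 and 8504. Cells marked as doublets made up 6.21% and 7.34% in the first library and 9.09% and 7.26% in the second. Empty cells were 68.5% of thinned cells in the first library and 29.5% in the second. The same cutoffs thus contrast unlike parts of the Sp5 distribution, and the sizes of the ratios below are not directly comparable between libraries. Of 5450 genes with at least 20 CPM in each library, 1 gene (T) was higher with Sp5 by a log2 ratio of at least 0.5 in both libraries, 0.0183% of the genes, and 4 genes (Dppa4, Utf1, Dppa5a and Trap1a) were lower, 0.0734%. Past a log2 ratio of 0.25, a threshold added after the data were seen, 0.349% were higher (19 genes) and 0.569% lower (31 genes). Across genes the log2 ratios of the 2 libraries had a Pearson r of 0.23 over 5450 genes, which are not independent, and 57.5% had the same sign. The measured co-variation with Sp5 was thus shallow, and few genes stood out at 20 CPM. At 1 CPM, where counting error is larger, 66 genes were higher and 144 lower past 0.5 in both libraries. A cell without a thinned Sp5 UMI need not lack Sp5, and how far this and counting error shrink the ratios was not tested.

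Because a single random thinning adds noise to genes with few UMIs, the ratios were also computed as the exact mean over all possible thinnings, an alternative added after the data were seen. Under it T was again the only gene higher past 0.5 in both libraries, and the only gene lower was Fabp3, a fatty acid binding protein. Of the 10 genes highest with Sp5, 5 were also among the highest 10 by that mean, and of the 10 lowest, 6. Values by that mean are also given below for each all-cell value that differs from it by at least 0.2.

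Of the primitive streak genes, T and Eomes were among the 10 highest with Sp5. T was higher by 0.95 (0.71 to 1.18) in the library labelled WT and by 0.71 (0.55 to 0.87) in the library labelled dKO, or 0.78 and 0.62 by the mean over thinnings. Eomes was higher by 0.58 (0.41 to 0.74) and 0.50 (0.42 to 0.58). Fgf8, a growth factor made in the streak, was higher by 0.59 (0.43 to 0.76) and 0.27 (0.18 to 0.36). Gsc, a homeobox gene of the anterior streak, showed 0.16 (-0.45 to 0.69) and 0.54 (0.32 to 0.77), or 0.49 and 0.62 by the mean over thinnings. Nodal, the streak-inducing ligand, had opposite signs, 0.38 and -0.20, with 0.16 in the library labelled WT by the mean over thinnings. Of the 5 primitive streak genes at 20 CPM, 1 passed 0.5 in both libraries and the medians were 0.58 and 0.38, against medians of 0.00 over all 5450 genes.

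Fst, Rspo3, Pkdcc, Hist1h1b, Fosb, Vcl, Rreb1 and Limk2 were the other genes among the 10 highest with Sp5. Fst, which encodes the activin antagonist follistatin, was higher by 0.32 (0.22 to 0.41) and 0.39 (0.33 to 0.45). Rspo3, a secreted amplifier of Wnt signalling, was higher by 0.30 (-0.02 to 0.60) and 0.28 (0.10 to 0.47), or 0.13 and 0.31 by the mean over thinnings, and Pkdcc, a secreted kinase, by 0.29 (-0.08 to 0.63) and 0.77 (0.55 to 1.00). Hist1h1b, a linker histone made in S phase, was higher by 0.29 (0.19 to 0.39) and 0.30 (0.23 to 0.37). The early response factor Fosb had 0.48 and 0.57, falling to 0.28 and 0.33 by the mean over thinnings. Vcl stood at 0.34 and 0.31, Rreb1 at 0.32 and 0.29 and Limk2 at 0.29 and 0.29. For Limk2 the library labelled dKO gave 0.02 by the mean over thinnings and -0.07 with another random draw, and for Vcl the mean gave 0.08 and 0.17, so these values rest on the draw. By the mean over thinnings the next genes were Fos (0.35 and 0.55), Gas1 (0.33 and 0.62), the ligand Wnt3 (0.28 and 0.37) and the Wnt receptor Fzd10 (0.27 and 0.30).

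Among the genes lowest with Sp5, Dppa5a, a marker of pluripotent cells, was at -0.54 (-0.72 to -0.37) in the library labelled WT and -1.02 (-1.11 to -0.94) in the library labelled dKO. Utf1, a chromatin factor of embryonic stem cells, was at -0.62 (-0.96 to -0.31) and -0.95 (-1.09 to -0.81), or -0.36 and -0.87 by the mean over thinnings. Trap1a, an X-linked gene of early embryonic and tumour cells, was at -0.54 (-0.94 to -0.19) and -0.77 (-0.96 to -0.58). Dppa4 was at -0.62 (-1.06 to -0.23) and -0.89 (-1.09 to -0.70). Dppa4 in the library labelled WT was at 0.06 with another random draw and at -0.20 by the mean over thinnings, so that value rests on the draw. The homeobox gene Rhox5 (-0.48 and -1.09) and Fabp3 (-0.39 and -1.14) went the same way, and the mean over thinnings put Fabp3 at -0.60 in the library labelled WT. For Rhox5 the library labelled WT gave 0.18 when Sp5-rich meant at least 3 UMIs. None of the 11 naive pluripotency genes listed reached 20 CPM in both libraries, so that list gave no count. Zfp42 (Rex1), one of them with 17.3 and 17.6 CPM, stood at -0.66 (-1.21 to -0.20) and -0.88 (-1.12 to -0.64). Others on that list, all but Klf2 at fewer UMIs, were mostly lower as well. The smaller of the 2 libraries' ratios was -3.14 for Dppa3, -2.11 for Esrrb and -2.02 for Nr0b1. It was -1.34 for Fgf4, -1.32 for Tbx3 and -0.19 for Klf2, but 0.15 for Klf4 and 0.31 for Tfcp2l1. Klf5 and Prdm14 stood at 0.00. Nav2, Cbx7, Sgk1 and Fmr1nb were the others among the 10 lowest, at -0.41 to -0.73 in the library labelled WT and -0.40 to -0.64 in the library labelled dKO. By the mean over thinnings Fmr1nb was at -0.10 in the library labelled WT and Cbx7 at -0.17.

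The ratio between the libraries was near 0 for most of these genes, in contrast to Sp5 itself. It was 0.00 for Dppa5a (132.6 CPM in both), 0.01 for Trap1a and 0.08 for Dppa4 and Rhox5, while Utf1 was higher at 0.38 and Sgk1 at 0.50. T was higher by 0.39 (0.33 to 0.45), and Eomes by 1.03 (0.99 to 1.06), in the library labelled dKO.

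Wnt feedback genes at 20 CPM did not pass a log2 ratio of 0.5 with Sp5 in both libraries. Axin2, the scaffold that feeds back on β-catenin, was higher with Sp5 by 0.24 (0.06 to 0.42) in the library labelled WT and 0.31 (0.19 to 0.44) in the library labelled dKO. Nkd1, a Dishevelled antagonist, gave 0.15 (-0.08 to 0.36) and 0.52 (0.38 to 0.66), and the receptor Tnfrsf19 0.08 (-0.16 to 0.31) and 0.41 (0.26 to 0.55). Lef1 gave 0.01 (-0.21 to 0.22) and 0.23 (0.11 to 0.36), or 0.26 and 0.30 by the mean over thinnings. Ccnd1 stood at -0.01 and -0.08, and Tcf7 at 0.12 and -0.12. Of the 7 Wnt feedback genes at 20 CPM 4 were positive in both libraries and 1 (Ccnd1) negative, against 28.4% and 29.2% of all genes. The medians were 0.08 and 0.23 by the single thinning. Dkk1, a secreted Wnt antagonist on the same list, was below that level at 6.79 and 8.01 CPM and was higher with Sp5 by 0.69 (0.02 to 1.26) and 0.68 (0.28 to 1.11), or 0.98 and 0.54 by the mean over thinnings. It is named after its value was seen. The 16 genes of Wnt signal transduction held none past 0.5 in both, and their medians were 0.00 and 0.06. Between libraries the 9 Wnt feedback genes at 10 CPM had a median log2 ratio of -0.13, against -0.02 for all genes, and Axin2 stood at -0.13 (-0.18 to -0.09).

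Sp8 was sought in the same way, with 668 positive and 7781 negative cells in the library labelled WT and 1462 and 8767 in the library labelled dKO. Median depths were 10456.5 and 10711 UMIs in the first and 8891.5 and 8732 in the second. No gene was higher with Sp8 past 0.5 in both libraries, 0% of 5450, and 1 gene (Trap1a) was lower, 0.0183%. Past 0.25, 0.422% were higher (23 genes) and 0.349% lower (19 genes). Across genes r between libraries was 0.17, and 55.8% had the same sign. By the mean over thinnings the 2 genes lower past 0.5 were Rhox5 (-0.66 and -0.59) and Glrx (-0.65 and -0.51), and none was higher. Of the 10 highest and 10 lowest genes, 6 and 5 were also among the 10 by that mean.

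No gene was among the 10 highest with both Sp5 and Sp8, but for Rspo3 this rests on the cutoff. Rspo3, among the 10 of Sp5, stood with Sp8 at 0.39 (0.07 to 0.69) in the library labelled WT. In the library labelled dKO it stood at 0.30 (0.08 to 0.50). Its smaller ratio equalled, as rounded, that of Nrp2, which was among the 10 of Sp8. For the other genes among the 10 of Sp5 the smaller ratio with Sp8 was at most 0.12. The overlap to be found by chance was not tested. The 10 highest with Sp8 were headed by Pcsk2, a prohormone convertase, at 0.47 (0.11 to 0.80) and 0.41 (0.14 to 0.67). Sfrp1, a secreted Wnt antagonist, stood at 0.38 and 0.37, but by the mean over thinnings at 0.06 in the library labelled WT. Sox3, a SoxB1 factor of epiblast and neural progenitors, stood at 0.35 (0.11 to 0.57) and 0.35 (0.13 to 0.56). The integrin gene Itgb5 stood at 0.35 and 0.54, and Nrp2, a semaphorin co-receptor, at 0.30 and 0.49. Zdbf2, Dipk2a, Sall3, Efnb2 and Zfp869 completed the 10, at 0.31 to 0.56 in the library labelled WT and 0.31 to 0.33 in the library labelled dKO. Dipk2a was at 0.22 and Sall3 at 0.20 in the library labelled WT by the mean over thinnings. Foxb1, a forkhead gene of the neural plate, stood at 0.30 (0.14 to 0.45) and 0.51 (0.37 to 0.64). It was also higher with Sp5, at 0.23 (0.07 to 0.38) and 0.42 (0.29 to 0.55).

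T did not follow Sp8, at 0.16 (-0.14 to 0.44) and 0.02 (-0.16 to 0.20), and Eomes stood at -0.24 (-0.46 to -0.03) and 0.05 (-0.04 to 0.15), or -0.05 and 0.03 by the mean over thinnings. Fgf8, which was higher with Sp5, was lower with Sp8, at -0.48 (-0.72 to -0.26) and -0.22 (-0.33 to -0.11), although thinning to 2500 UMIs gave 0.04 in the library labelled WT. Of the 5 primitive streak genes at 20 CPM, 1 was positive and 3 were negative with Sp8 in both libraries, against 31.3% and 24.4% of all genes. These signs rest in part on values near 0. The smaller of the 2 libraries' ratios was 0.02 for T, -0.00 for Wnt3 and -0.07 for Nodal, and -0.22 for Fgf8. Of the 5 anterior and neural genes, 3 were positive and none negative in both, with medians of 0.09 and 0.34. Their smaller ratios were 0.35 for Sox3, 0.30 for Foxb1 and only 0.01 for Sox2. The difference between the ratios with Sp5 and with Sp8 was not tested.

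Trap1a and Dppa5a were among the 10 lowest with both. Trap1a stood at -0.64 (-1.09 to -0.25) and -0.63 (-0.93 to -0.35) with Sp8, or -0.37 and -0.71 by the mean over thinnings, and Dppa5a stood at -0.48 (-0.67 to -0.30) and -0.72 (-0.86 to -0.58). Zfp42 stood at -0.56 (-1.13 to -0.07) and -0.69 (-1.07 to -0.34). The naive pluripotency list was mixed with Sp8. Klf2 stood at 0.26 (-0.05 to 0.54) and 0.20 (-0.09 to 0.47). The smaller of the 2 libraries' ratios was 0.14 for Klf4 and 0.13 for Klf5, but -1.12 for Dppa3 and -0.59 for Esrrb, all at few UMIs. Trh, the thyrotropin-releasing hormone gene, was at -0.47 (-0.57 to -0.37) and -0.42 (-0.47 to -0.37), and with Sp5 at -0.10 (-0.19 to -0.02) and -0.21 (-0.25 to -0.17). Lefty1, a Nodal antagonist, was at -0.38 (-0.66 to -0.12) and -0.56 (-0.77 to -0.36). Efl1, Car4, Capg, Sdc4, Psme2 and Castor1 were the remaining genes of the 10 lowest, at -0.33 to -0.66 and -0.32 to -0.47. By the mean over thinnings Efl1 was at -0.06 and -0.18 and Castor1 at -0.11 in both libraries, so these values rest on the draw. Car4 was at -0.28 and Capg at -0.31 in the library labelled WT by that mean.

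Sp5 and Sp8 themselves followed each other in the library labelled dKO, where Sp8 was higher by 0.66 (0.49 to 0.84) in Sp5-rich cells. It was at 0.17 (-0.22 to 0.52) in the library labelled WT.

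**Figure D4:**
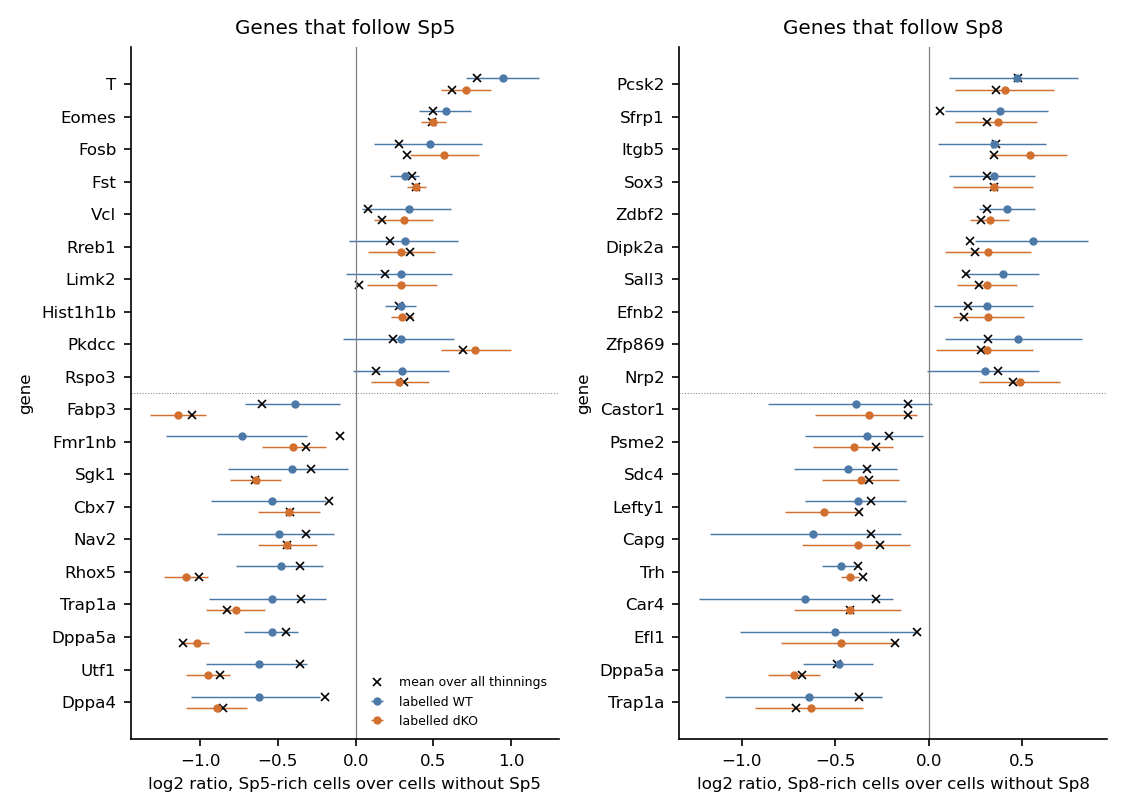
Log2 ratio (x axes) between Sp5-rich cells and cells without Sp5 (left) and between Sp8-positive and Sp8-negative cells (right) for the 10 highest and 10 lowest genes (y axes), which were picked by these values. Dots with 95% counting intervals are the single thinning, blue for the library labelled WT and orange for the library labelled dKO, and crosses are the mean over all thinnings; for T the dots lie at 0.95 and 0.71 and the crosses at 0.78 and 0.62.

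The same genes were followed within status classes, using the mean over all thinnings. Their signs were fixed by the choice of genes in all cells, so the counts describe how evenly the pattern was spread and are no separate evidence. In cells without T, Eomes or Irx3, all 8 of the remaining genes higher with Sp5 stayed positive in each library, with medians of 0.22 in the library labelled WT and 0.32 in the library labelled dKO. All 10 lower genes stayed negative there, with medians of -0.34 and -0.92. Thus the pattern was present among cells in which no status gene was found.

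Of the 10 genes lowest with Sp5, 6 in the library labelled WT and 9 in the library labelled dKO had values nearer 0 in Eomes-positive than in Eomes-negative cells. The exceptions were Dppa4, Utf1, Trap1a and Nav2 in the first and Rhox5 in the second. Nav2 went from -0.27 to -0.43 and Dppa4 from -0.15 to -0.29. Fabp3 with Sp5 was at -0.74 in Eomes-negative and 0.06 in Eomes-positive cells of the library labelled WT, and at -1.34 and -0.20 in the library labelled dKO. Zfp42 was at -0.93 and -0.11, and at -1.26 and -0.47. Dppa5a was at -0.51 and -0.27, and at -1.30 and -0.75. Rhox5 showed this in the library labelled WT (-0.51 and -0.01) but was at -0.98 and -1.01 in the library labelled dKO. By T status 5 and 8 of the 10 were nearer 0 in positive cells, Fabp3 among them, with -0.66 in T-negative and 0.06 in T-positive cells and -1.11 and -0.19 in the library labelled dKO. These differences between classes were not tested, and fewer cells stand behind the positive classes.

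T and Eomes each followed Sp5 at every status of the other. T was higher with Sp5 by 0.69 in Eomes-negative and 0.70 in Eomes-positive cells of the library labelled WT, and by 0.50 and 0.57 in the library labelled dKO. Eomes was higher with Sp5 by 0.42 in T-negative and 0.46 in T-positive cells, and by 0.44 and 0.48. Fgf8 with Sp5 stood at 0.43 and 0.38 by Eomes status in the library labelled WT, and at 0.08 and 0.31 in the library labelled dKO. Axin2 hardly varied by status, between 0.22 and 0.27 in the library labelled WT and between 0.29 and 0.40 in the library labelled dKO.

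For Sp8 the sets were followed in the same way. In cells without T, Eomes or Irx3 the 10 higher genes were all positive, with medians of 0.31 and 0.35. Of the 10 lower genes 9 and 10 were negative there, with medians of -0.30 and -0.41, and Efl1 at 0.02 was the exception. Irx3-positive cells were few, with 50 and 172 Sp5-rich cells and 36 and 61 Sp8-positive cells. In them 8 and 5 of the 10 genes higher with Sp5 were positive in the libraries labelled WT and dKO. Of the genes higher with Sp8, 8 and 9 of 10 were positive there, and of those lower with it, 8 and 7 were negative. Zfp42 with Sp8 was at -0.61 and -1.02 in cells without a status gene and at 0.04 and -0.22 in Eomes-positive cells. Nkx1-2, a homeobox gene of the caudal epiblast, stood at 0.23 and 0.62 with Sp8 in cells without a status gene, but the single thinning gave -0.24 (-0.83 to 0.25) and 0.57 (0.17 to 0.94).

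Among the other members of the Sp and Klf families, of 12 genes at 10 CPM none was higher between libraries by 0.5. Klf2 was the 1 that was lower, at -0.79 (-0.88 to -0.71), and the median was -0.16. Of all 7607 genes at that level, 0.421% were higher and 0.434% lower. The ubiquitous factors Sp1 and Sp3 stood at -0.12 (-0.18 to -0.06) and -0.28 (-0.35 to -0.22). Below that level, and named after their values were seen, Sp9, the family member most like Sp8, had 2.52 and 1.17 CPM, a log2 ratio of -1.11 (-1.44 to -0.78), and Klf12 stood at -0.55 (-0.83 to -0.27). With Sp5, none of 8 at 20 CPM passed 0.5 in both libraries, with Sp1 at 0.03 and -0.09 and Sp3 at -0.26 and -0.04. Klf2, which also marks naive pluripotent cells, stood at -0.19 (-0.52 to 0.12) and -0.49 (-0.72 to -0.26) with Sp5.

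The genes beside Sp5 were examined because its level differed so much between libraries. On the same strand downstream, Erich2 (31.1 kb away) had 43 UMIs in the library labelled WT and 92 in the library labelled dKO, a log2 ratio of 1.08 (0.55 to 1.65). Gad1, the glutamate decarboxylase gene 75.3 kb away, had 87 and 169 UMIs, a ratio of 0.95 (0.57 to 1.34). Both are low, and both were higher in the library labelled dKO beyond counting error. The other detected neighbours with at least 30 UMIs, Ubr3, Mettl5, Ssb, Klhl23, Gorasp2 and Tlk1, lay between -0.15 and 0.15. In unthinned cells, Gad1 was also higher in cells with Sp5 than in cells without it, beyond counting error only in the library labelled dKO. The ratio was 0.66 (-0.01 to 1.39) in the library labelled WT and 1.15 (0.30 to 2.31) in the library labelled dKO. Erich2 gave 0.18 (-0.75 to 1.19) and 0.96 (-0.11 to 2.55), and both intervals include 0. This was not limited to the nearest genes. Klhl23, 638.3 kb upstream, was higher in cells with Sp5 in both libraries, at 0.19 (0.04 to 0.34) and 0.27 (0.05 to 0.51). Ssb was too, at 0.05 (0.03 to 0.08) and 0.07 (0.03 to 0.12). For Ubr3, Mettl5, Gorasp2 and Tlk1 the intervals include 0.

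Beside Sp8, the nearest upstream gene Sp4 had 1012 and 1043 UMIs, a ratio of 0.04 (-0.09 to 0.16). Cdca7l stood at 0.24 (0.17 to 0.31), Itgb8 at -0.43 (-0.83 to -0.04) and Dnah11, with 59 and 95 UMIs, at 0.68 (0.20 to 1.17). Rapgef5 stood at 0.16 (0.08 to 0.24), and Ptprn2, with 39 and 58 UMIs, at 0.56 (-0.04 to 1.19). In unthinned cells with Sp8 over those without, Rapgef5 was higher in both libraries, at 0.24 (0.11 to 0.37) and 0.23 (0.12 to 0.34). Sp4 was higher only in the library labelled dKO, at 0.24 (0.05 to 0.43), and the intervals of the other neighbours include 0. Genes of chromosomes 2 and 12 had median log2 ratios of -0.03 and -0.06.

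**Figure D5:**
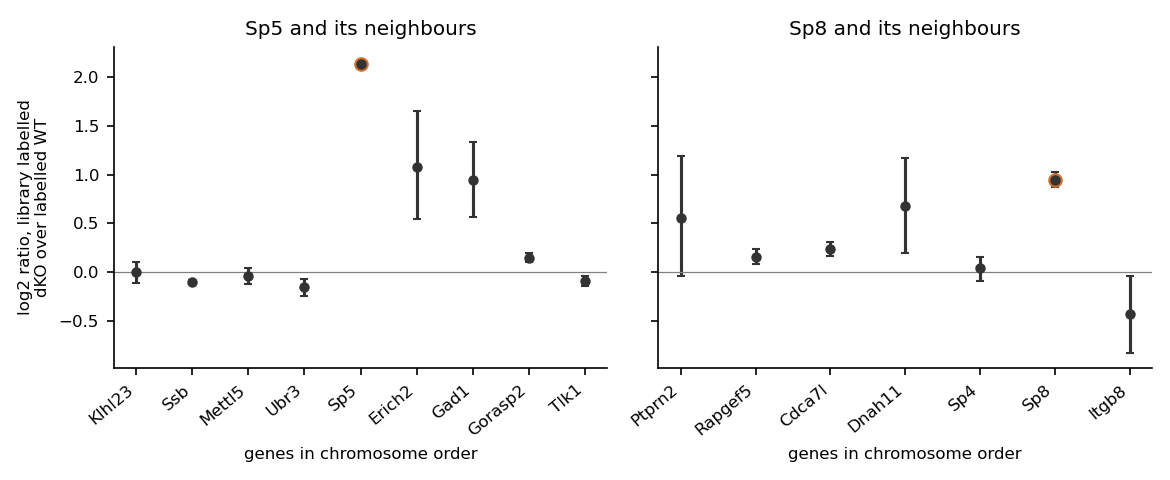
Log2 ratio of the library labelled dKO over the library labelled WT (y axis) for Sp5 (left) and Sp8 (right), circled in orange, and their neighbours with at least 30 UMIs, in chromosome order (x axes). Bars are 95% counting intervals; Sp5 stands at 2.13 with Erich2 at 1.08 and Gad1 at 0.95 next to it, and Sp8 at 0.95 with Sp4 at 0.04.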

How the data were processed

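Per the labels, 10x 3′ V3.1 libraries of pooled, dissociated gastruloids were sequenced on a NovaSeq X Plus and analysed with Cell Ranger 8.0.1. The submitters' processing notes name STARsolo, STAR 2.7.9a, Seurat 5.1.0 and mm10, and which of these tools wrote the matrices is not given in the sources used here. The deposited values are raw UMI counts for every listed barcode, with no cell filter. No columns of per-sample values were left unused (0). Total depth was 104083993 and 103187025 UMIs over all barcodes.

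Cells were called by the thresholds given above, which removed 1 and 0 barcodes for few genes and 64 and 26 for mitochondrial share. Doublets were kept, and an alternative removed the highest Scrublet scores (scanpy 1.11.5) at 0.8% per 1000 cells, 606 and 897 cells. CPM is a gene's summed count per 1000000 summed counts. Log2 ratios used a pseudocount of 0.5 UMI per sum. Intervals are exact (Poisson, conditional Poisson for ratios, Clopper-Pearson binomial for shares) at 95% and cover counting error only. The expected number of cells with both genes comes from the product of their shares. The ratio's interval is the binomial interval of the observed share of cells with both, divided by that product. The mean over all thinnings weights each cell by its hypergeometric chance of class membership. The comparison script was checked on simulated data. Scaling by edgeR TMM (4.0.16) moved the median ratio of all genes by 0.03. Of the gene identifiers, 32158 of 32285 matched GENCODE M21. Promoters and motif shares are from RefSeq, and no protein sequences were used here.

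The named genes were Sp5, Sp8, T, Eomes, Irx3, the 10 highest and 10 lowest genes with each of Sp5 and Sp8 (ranked by the smaller of the 2 libraries' ratios, at 20 CPM, without mitochondrial, ribosomal, predicted and clone-named genes), up to 3 genes per list and per comparison in 10 lists, and 5 neighbours on each side. Fos, Gas1, Wnt3 and Glrx came from the same ranking by the mean over all thinnings. The members, lists and rules were chosen with earlier results of these data known.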

Additional observations from a re-analysis of the deposited data

How the results depend on the processing

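With 1 library per genotype no replicate could be left out and no test of the genotype was possible. No paired analysis was possible because each genotype has 1 library. Depth limits Sp8, at 0.0846 and 0.161 thinned UMIs per cell, and Irx3, at 0.0774 and 0.0367. All alternatives kept Sp5 and Sp8 higher in the library labelled dKO: Sp5 was at 2.04 with equal weights of the 8 status classes and 2.17 with at most 5% mitochondrial UMIs (Sp5 share 71.5%). At 2500, at 6000 and without thinning, the Sp5 share was 22.5%, 40.9% and 55.5% in the library labelled WT and 57.9%, 79.6% and 84.8% in the other, and the Sp8 share 5.08%, 11.3% and 19.1%, and 9.05%, 19.8% and 27.3%. Another random draw gave 7.28% for Sp8 in the first. The causes of changes below were not tested.

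Values by status, in the libraries labelled WT and dKO, moved as follows. At 2 UMIs for status, Sp5 was at 0.73 and 0.44 by T, 0.61 and 0.30 by Eomes and 0.20 (reversed) and -0.26 by Irx3. Sp8 was then at 0.63 by T and -0.95 by Irx3 in the first and 0.04 by Eomes in the second. At 2500 UMIs, Sp8 was at 0.18 by Eomes and 0.18 by Irx3 in the first and 0.05 by Eomes in the second, and Sp5 at 0.34 by T and 0.16 by Irx3 in the second. Sp5 by T in the first was 0.36 at 6000 UMIs and 0.36 with another draw, and Sp8 by Irx3 0.35 at 6000.

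Genes past 0.5, higher and lower with Sp5 and higher and lower with Sp8, numbered 66, 144, 85 and 104 at 1 CPM and 19, 31, 23 and 19 past 0.25. Higher with Sp5 were 4 genes for rich cells at 3 UMIs, 2 at 10 CPM, without doublets, at a pseudocount of 2 and at 6000 UMIs, and 0 at 50 CPM and in T-negative cells. T, the only such gene in the main result, has no UMI in T-negative cells by definition, so its loss from the count there was fixed in advance. Lower with Sp5 were 1 for rich cells at 1 UMI, at 50 CPM, by the mean over thinnings and at 6000 UMIs, and 2 with another draw. Sp8 at 2 UMIs or more gave 44 and 47. Higher with Sp8 were 1 in T-negative cells and 3 at 2500 UMIs. The gene counted in T-negative cells was T itself, which has no UMI there, so its ratio came only from the pseudocount and the class sizes. Lower with Sp8 were 3 in T-negative cells, at 10 CPM and with another draw, 2 without doublets, by the mean over thinnings and at 2500 UMIs, and 0 at 50 CPM.

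Reversed values of single genes were, with Sp5, Limk2 in the library labelled dKO at -0.11 (2500 UMIs), -0.01 (6000) and -0.07 (another draw), and in the other library Rhox5 at 0.18 (3 UMIs), Fmr1nb at 0.08 (2500) and Dppa4 at 0.06 (another draw). With Sp8 at 2500 UMIs the library labelled dKO gave Sall3 -0.04, Efnb2 -0.04, Sox2 -0.18, Sparc 0.06, Efl1 0.06 and Tcf7 0.08, and the other gave Fgf8 0.04. Sparc there was 0.14 at 6000 and 0.18 with another draw. At 2 Sp8 UMIs they were Sox2 -0.33 and Sparc 0.07 in the library labelled dKO and Zfp869 -0.07, Sfrp1 -0.08, Sall3 -0.24, Efnb2 -0.73 and Efl1 0.08 in the other. Between libraries, equal weights turned Col4a1 to 0.03 and Klf7 to 0.03.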

Other observations

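Genes of other listed groups were also read against Sp5 and Sp8. Sparc, a matrix protein gene of extraembryonic endoderm, stood at -0.24 (-0.47 to -0.02) and -0.60 (-0.72 to -0.47) with Sp5, and the basement membrane collagen Col4a1 at -0.09 (-0.44 to 0.22) and -0.50 (-0.69 to -0.32). By the mean over thinnings Sparc was at -0.28 in Eomes-negative and -0.14 in Eomes-positive cells of the library labelled WT, and at -0.63 and -0.15 in the library labelled dKO. Only 10 and 12 cells held at least 3 of 7 extraembryonic endoderm markers, and they had 1 and 2 Sp5 UMIs. The keratin gene Krt18 stood at -0.52 (-1.02 to -0.08) and -0.23 (-0.46 to -0.01) with Sp5, or -0.12 and -0.30 by the mean over thinnings, and at -0.68 (-1.25 to -0.19) and -0.38 (-0.71 to -0.09) with Sp8.

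Of the 5 stress genes listed, 2 reached 10 CPM. Both were higher in the library labelled dKO by at least 0.5, against 0.421% of all 7607 genes at that level. Chac1, a target of the amino acid and unfolded protein responses, was higher by 0.77 (0.67 to 0.86) and Trib3 by 0.63 (0.51 to 0.76). Below that level Atf3 was higher by 0.60 (0.43 to 0.77), while Ddit3 stood at 0.14 (-0.03 to 0.31) and Pmaip1 at 0.06 (-0.09 to 0.20). With Sp5, Chac1 stood at -0.40 (-0.95 to 0.08) and -0.11 (-0.32 to 0.10), and Trib3 at 0.03 (-0.65 to 0.62) and -0.32 (-0.61 to -0.04). Chac1 was at -0.41 and -0.13 and Trib3 at -0.23 and -0.24 by the mean over thinnings. Of 7 anterior epiblast and neural genes at 10 CPM, 4 were lower in the library labelled dKO by at least 0.5. Otx2 was the 1 that was higher, at 0.86 (0.80 to 0.93). Of all 7607 genes at that level, 0.434% were lower and 0.421% higher. Irx3 and Irx5 were at -1.27 (-1.39 to -1.15) and -1.21 (-1.34 to -1.09). With Sp8, Irx5 stood at 0.36 (-0.06 to 0.74) and 0.51 (0.07 to 0.91).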
